A study of Homo sapiens with 12 samples.

Results

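The subunits of the AP-1 transcription factor and the related factors MAFF and EGR1 were followed in PC-3 cells, a human androgen-independent prostate adenocarcinoma line, in which the PIM1 kinase and the transcription factor NFATC1 had been overexpressed. The 9 genes, of 20092 to which array probes could be assigned, were JUN, JUNB, JUND, FOS, FOSB, FOSL1, FOSL2, MAFF and EGR1. Each was found through the RefSeq transcript that its array probe is annotated with, and each had 1 probe among the 34127 non-control probes of the array, of which 31484, with all 9 of these among them, passed a filter on dim probes. The study asked which genes respond to PIM1 and to NFATC1, and whether the answer depends on the sites at which PIM1 phosphorylates NFATC1. It used 6 two-colour Agilent arrays on 2 slides, with 12 samples in 6 groups of 2.

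All groups shared the stable pools of PC-3 cells selected with G418, into which a Td-Tomato plasmid had been introduced together with either the empty pcDNA3.1 vector or the PIM1 expression vector. The group called control carried the empty vector, and the group called PIM1 carried the PIM1 vector. The groups WT and MM were cells without stable PIM1 that had been transiently transfected with wild-type NFATC1 or with the multi mutant, in which serines and threonines at the PIM1 target sites had been changed to alanines. The groups PIM1 + WT and PIM1 + MM were stable PIM1 cells given the same NFATC1 forms. The labels name no mock transient transfection for control and PIM1, so that a comparison of a transfected group with either of them also carries the transfection itself. RNA from control, WT and PIM1 + WT was labelled with Cy3, and RNA from PIM1, MM and PIM1 + MM with Cy5. No dye was swapped, and a difference between the dyes and a difference between the groups cannot be told apart when a Cy3 group is set against a Cy5 group. The comparisons within 1 dye were therefore taken first. Each stable line is 1 pool of transfected cells. An effect of PIM1 therefore cannot be told apart from another difference between the pools. Nothing in the sources says whether the 2 samples of a group came from separate transfections. The p-values thus measure the spread between these samples, which may be technical.

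AP-1 is a dimer of basic leucine zipper (bZIP) proteins. JUN proteins pair with each other or with FOS proteins, while FOS proteins bind DNA only with a partner, and JUNB and JUND are weaker activators than JUN that can counteract it in some settings. FOS, FOSB, JUNB and EGR1 are classical immediate-early genes, induced by growth factors through MAP kinases and serum response factor and then switched off, whereas FOSL1 and JUN stay high in many invasive carcinoma lines. NFAT proteins bind many of their target promoters together with AP-1, and the small MAF protein MAFF, which lacks a transactivation domain, pairs with CNC factors such as NFE2L2.

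In RefSeq (GRCh38.p14) JUN lies on chromosome 1, FOSL2 on chromosome 2, EGR1 on chromosome 5, FOSL1 on chromosome 11, FOS on chromosome 14, JUNB, JUND and FOSB on chromosome 19 and MAFF on chromosome 22. The parts of the transcripts that the probes match are not given in the sources used here.

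Levels are given as log2 of the quantile-normalized raw intensity, without units. Differences are log2 fold changes with the standard error (SE) of the limma fit, and a gene was said to rise or fall where its Benjamini-Hochberg adjusted p over all 31484 probes was below 0.05. In these bulk RNA samples a change in the share of cells that express a gene cannot be told apart from a change per cell. The array shared by the first control and first PIM1 samples stood apart from the others: its flagged spots numbered 835 and 564 in the 2 channels against 230 to 367 in the other 10, and its channels were the farthest from the others of their dye. The 2 PIM1 + WT samples had the lowest median raw intensities among the Cy3 samples (102 and 86 against 130.5 to 139) and the lowest signal of the spiked-in control RNA relative to the sample RNA (ratios of 8.28 and 8.80 against 14.6 to 19.6). Among the Cy5 samples the same ratio was 40.8 and 27.4 in MM, 25.6 and 15.7 in PIM1, and 22.6 and 14.9 in PIM1 + MM. The part of these differences between groups in the results was not tested. Of the epithelial markers EPCAM, KRT8, KRT18, KRT19 and CDH1, 4 of 5 were well above background in all 12 channels, and CDH1 in 9. The same flag was set in all 12 for at least 1 probe of KLK2 and TMPRSS2, and also of the leukocyte gene PTPRC and of COL1A1, PECAM1 and CDH5, while KLK3 and DCN were not well above background in any channel.

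The overexpressed genes were read first as a check of the labels. The first NFATC1 probe had a mean level of 6.87 in control, 7.77 in WT and 7.97 in PIM1 + WT within Cy3, and of 6.38 in PIM1, 11.29 in MM and 11.95 in PIM1 + MM within Cy5. It was thus higher in every group given an NFATC1 vector than in the untransfected group of its dye, and the excess was larger for MM in Cy5 than for WT in Cy3. The second NFATC1 probe did not follow the vectors, with 8.28 in WT beside 8.29 in control, and stood lower in the 3 groups with stable PIM1 (7.19 to 7.44) than in the 3 without (8.28 to 8.39). The PIM1 probe was at 9.93 in PIM1 + WT and 10.16 in WT, and at 10.29 in PIM1 + MM and 10.13 in MM, so that within Cy3 it went against the label. Where this probe lies relative to the sequence in the vector is not given in the sources used here, and it may check nothing. The study reports real-time qPCR of PIM1 and NFATC1 on the microarray samples as its own check of overexpression. That qPCR was not re-examined here. The groups are called by their labels throughout, and in the array values no probe checks the directions drawn for stable PIM1.

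The promoters of the JUN family members are shown here because JUN fell while JUNB and JUND rose from WT to PIM1 + WT. The 250 bases before the annotated start of each gene are given from RefSeq (GRCh38.p14), 5′ to 3′ on the strand of the gene. Capitals mark the 8-base sites of the form TGACNTCA, to which JUN and ATF dimers can bind, the CCAAT box and the TATAAA box.
JUN (chr1:58784048-58784297, minus strand): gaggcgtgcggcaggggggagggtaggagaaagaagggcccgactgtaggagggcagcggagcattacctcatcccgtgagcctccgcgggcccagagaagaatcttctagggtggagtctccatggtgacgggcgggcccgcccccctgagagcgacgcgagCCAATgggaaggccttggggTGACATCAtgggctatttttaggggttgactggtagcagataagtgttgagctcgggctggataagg
JUNB (chr19:12791236-12791485, plus strand): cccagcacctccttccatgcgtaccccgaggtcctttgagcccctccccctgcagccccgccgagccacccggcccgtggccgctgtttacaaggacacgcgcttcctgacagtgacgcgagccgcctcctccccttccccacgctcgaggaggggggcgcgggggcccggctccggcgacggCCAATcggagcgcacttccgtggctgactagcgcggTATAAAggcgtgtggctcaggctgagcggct
JUND (chr19:18281623-18281872, minus strand): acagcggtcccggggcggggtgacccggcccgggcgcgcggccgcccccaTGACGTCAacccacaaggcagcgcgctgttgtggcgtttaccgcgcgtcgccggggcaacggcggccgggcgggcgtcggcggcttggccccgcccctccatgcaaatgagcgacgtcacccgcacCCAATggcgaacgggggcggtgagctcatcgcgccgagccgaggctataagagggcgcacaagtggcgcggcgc

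With the first base of a match counted from the start site, the JUN window held TGACATCA at -67 and a CCAAT box at -87, the JUND window held TGACGTCA at -200 and a CCAAT box at -74, and the JUNB window held no TGACNTCA but a CCAAT box at -67 and TATAAA at -31. The CCAAT box was thus in all 3, while TGACNTCA was in 2 and TATAAA in 1. Over both strands of the 250 bases before 35116 annotated starts, TGACNTCA was found in 6.87%, CCAAT in 32.0% and TATAAA in 10.7%. The 7-base AP-1 form TGANTCA, present in 6.57% of all windows, was in none of the windows of the 8 members that the table holds. GGAAA, the core letters of many NFAT sites and present in 55.6% of all windows, was in 1 of these 8 members, MAFF, at the second of its annotated starts and on the opposite strand. The first MAFF window held TGACGTCA at -54, and the EGR1 window held CArG boxes, the site of serum response factor, at -105 and -83 (1.16% of all windows). The GC box GGGCGG was in 6 of the 8 members and in 42.6% of all windows. These letters are a description of the windows, and no motif overlapped another in the 3 printed sequences.

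The 9 genes were chosen with earlier results of these data known. Their counts beside the shares over all probes, here and below, are therefore a description and no test of an excess. Those shares include dim probes, whereas each member but EGR1 was above the negative controls in all 12 channels. Of the 21904 probes above them in all 12, 9652 passed for PIM1 + WT minus WT and 7189 for PIM1 + MM minus MM. For PIM1 + MM minus PIM1 5266 passed, and for WT minus control 226. More of these genes passed in the comparisons that added stable PIM1 than in those that added NFATC1, as was also true of all probes. With wild-type NFATC1, 6 of the 9 changed between WT and PIM1 + WT: JUNB, JUND, FOSL1, FOSL2 and MAFF rose and JUN fell. In that comparison 27.7% of all probes passed, 13.2% higher and 14.5% lower. With the mutant, 4 of the 9 changed between MM and PIM1 + MM, where FOSL2, MAFF and JUNB rose and JUN fell, against 19.3% of all probes. From PIM1 to PIM1 + MM, FOSL1, JUNB and JUND fell, 3 of the 9, against 13.5% of all probes (7.82% lower). From control to WT none of the 9 changed by limma, where 2 were below an unadjusted p of 0.05, and 0.191% of all probes passed (10.9% at the unadjusted p). This comparison and the one before it also carry the transient transfection itself. The median difference over the 9 was 0.48 for PIM1 + WT minus WT and 0.13 for PIM1 + MM minus MM, beside medians over all probes of -0.01 and 0.00. The 2 samples of one group lay apart from the 2 of the other for many more probes than passed (67.8% for PIM1 + WT and WT, 56.7% for PIM1 + MM and MM, 49.3% for PIM1 + MM and PIM1, 47% for WT and control), against which a lack of overlap is to be read below.

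**Figure D1:**
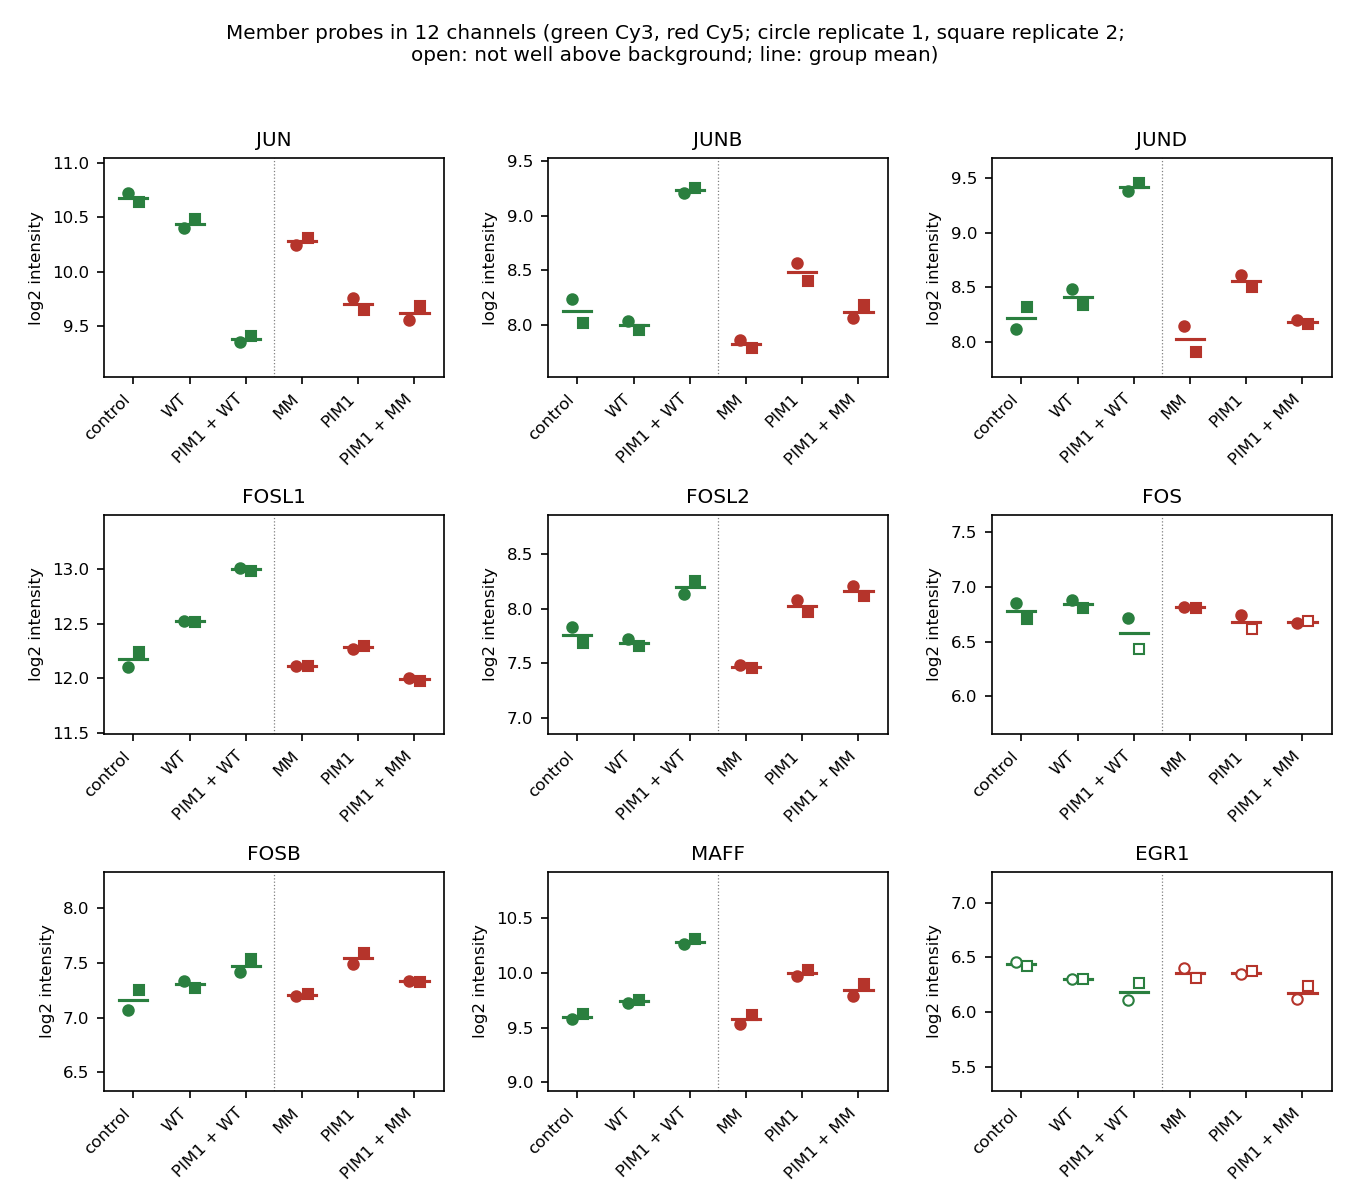
Log2 normalized intensity (vertical axis, each panel spanning the same log2 range of 2) of the 9 genes in the 12 samples, by group, with Cy3 groups left of the dotted line in green and Cy5 groups right of it in red. Circles are first and squares second samples, lines are group means and open symbols are values not well above background. JUN was lowest and JUNB, JUND, FOSL1 and MAFF were highest in both PIM1 + WT samples among the Cy3 samples, and EGR1 was open throughout.

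JUN, the founding and strongest activating subunit, was lower in both comparisons that added stable PIM1. Within Cy3 its level was 10.72 and 10.64 in control, 10.40 and 10.49 in WT, and 9.36 and 9.42 in PIM1 + WT. Within Cy5 it was 10.24 and 10.31 in MM, 9.76 and 9.65 in PIM1, and 9.55 and 9.68 in PIM1 + MM. The PIM1 + WT samples lay below both other Cy3 groups, and MM lay above both Cy5 groups with stable PIM1. JUN fell by 1.05 on the log2 scale (2.08-fold, SE 0.07, adjusted p = 1.65e-05) from WT to PIM1 + WT and by 0.66 (1.58-fold, SE 0.07, adjusted p = 0.000367) from MM to PIM1 + MM, with like differences on slide 1 (-1.04 and -0.69) and slide 2 (-1.07 and -0.63). Neither NFATC1 form changed it past the threshold: the difference was -0.24 (SE 0.07, adjusted p = 0.263) for WT minus control and -0.08 (SE 0.07, adjusted p = 0.498) for PIM1 + MM minus PIM1, where the 2 groups overlapped. In Cy3 the order was control, WT, PIM1 + WT from high to low, of which control and WT did not differ past the threshold.

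JUNB, an immediate-early JUN protein, rose with stable PIM1, and most in the presence of wild-type NFATC1. Its Cy3 levels were 8.24 and 8.02 in control, 8.04 and 7.96 in WT, and 9.21 and 9.26 in PIM1 + WT. In Cy5 it stood at 8.57 and 8.41 in PIM1, 7.86 and 7.79 in MM, and 8.06 and 8.18 in PIM1 + MM. Control and WT overlapped, whereas PIM1 + WT was above both. The rise from WT to PIM1 + WT was 1.23 (2.35-fold, SE 0.09, adjusted p = 1.96e-05), the largest of the 9. From MM to PIM1 + MM it was 0.30 (1.23-fold, SE 0.09, adjusted p = 0.0478), a call that was lost with loess normalization, with the scanner software's processed signal and without any 1 of the 4 samples compared. From PIM1 to PIM1 + MM it fell by 0.36 (SE 0.09, adjusted p = 0.0291). That call was lost without the array that stood apart and without either PIM1 + MM sample, and the difference was -0.50 on slide 1 and -0.22 on slide 2.

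JUND, the most constitutively expressed JUN protein in many tissues, followed JUNB in Cy3 and less so in Cy5. The Cy3 levels were 8.12 and 8.32 in control, 8.48 and 8.34 in WT, and 9.39 and 9.46 in PIM1 + WT. The Cy5 levels were 8.61 and 8.50 in PIM1, 8.14 and 7.91 in MM, and 8.20 and 8.17 in PIM1 + MM. PIM1 + WT lay above the other Cy3 groups, which did not differ past the threshold (0.19, adjusted p = 0.542). JUND rose by 1.01 (2.01-fold, SE 0.10, adjusted p = 0.000107) from WT to PIM1 + WT, whereas the difference from MM to PIM1 + MM was 0.16 (95% interval -0.07 to 0.39, adjusted p = 0.329). It fell by 0.38 (SE 0.10, adjusted p = 0.0396) from PIM1 to PIM1 + MM, a call that ended when any 1 of these 4 samples was left out.

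**Figure D2:**
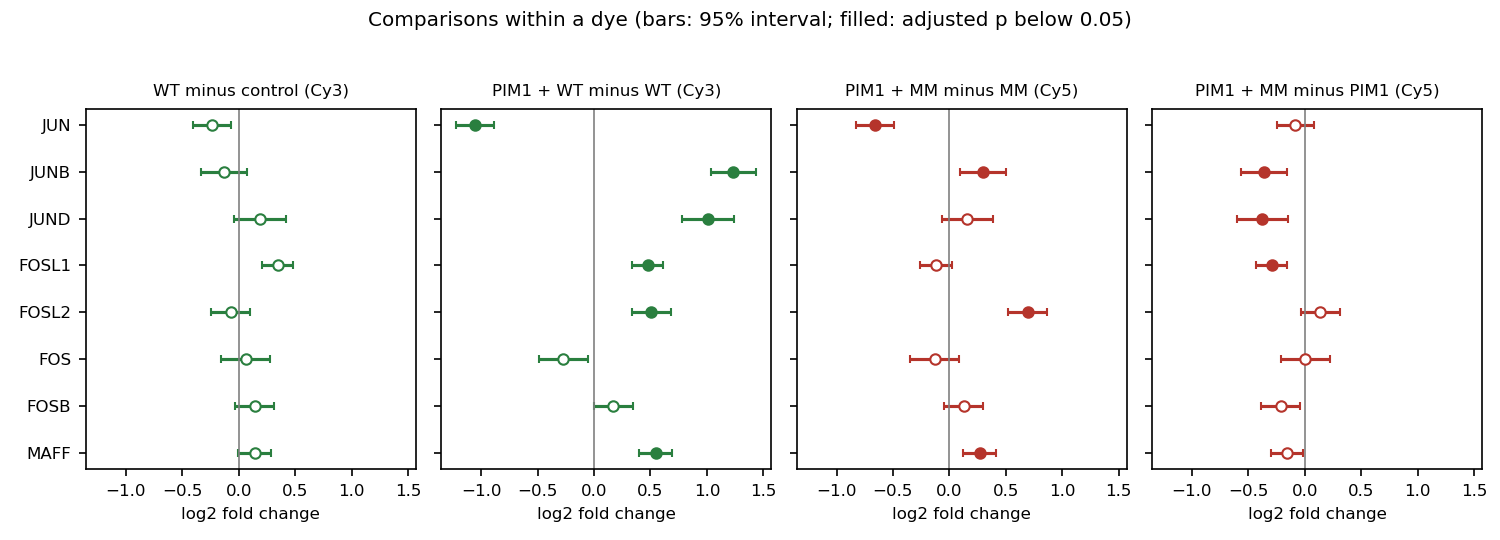
Log2 fold change (horizontal axis) of 8 genes in the 4 comparisons within a dye, with EGR1 left out because it was not well above background. Points are limma estimates from 2 samples a group, bars are 95% intervals, and filled points had an adjusted p below 0.05. JUN lies left of 0 and JUNB, FOSL2 and MAFF right of 0 in both middle panels, which add stable PIM1, while of these panels JUND and FOSL1 are filled only in that with wild-type NFATC1.

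Among the FOS proteins, FOSL1 and FOSL2, which lack the strong transactivation domain of FOS, showed changes. FOSL1 (FRA1) was at 12.11 and 12.24 in control, 12.52 and 12.52 in WT, and 13.01 and 12.98 in PIM1 + WT. In Cy5 its level was 12.27 and 12.30 in PIM1, 12.11 and 12.11 in MM, and 12.01 and 11.98 in PIM1 + MM. It thus climbed over the Cy3 groups in the order control, WT, PIM1 + WT, and stood lowest in PIM1 + MM among the Cy5 groups. The step from WT to PIM1 + WT was 0.48 (1.39-fold, SE 0.06, adjusted p = 0.000446), and the step from control to WT was 0.35 (SE 0.06, adjusted p = 0.0819), which did not pass, although it did where only probes above the negative controls in all 12 channels were tested (adjusted p = 0.0377). From PIM1 to PIM1 + MM it fell by 0.29 (1.23-fold, SE 0.06, adjusted p = 0.0153), a call that ended without the second PIM1 + MM sample, and the difference from MM to PIM1 + MM was -0.12 (95% interval -0.26 to 0.02, adjusted p = 0.224). With each channel centred on its median in place of quantile normalization, the step from WT to PIM1 + WT was 0.17 (adjusted p = 0.689).

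FOSL2 (FRA2) was higher in the cells with stable PIM1 with either form of NFATC1. It was at 7.84 and 7.69 in control, 7.72 and 7.66 in WT, and 8.14 and 8.25 in PIM1 + WT, and at 8.08 and 7.97 in PIM1, 7.48 and 7.46 in MM, and 8.21 and 8.12 in PIM1 + MM. Control and WT overlapped, and each group with stable PIM1 was above the groups of its dye without it. The rise was 0.51 (1.42-fold, SE 0.08, adjusted p = 0.00105) from WT to PIM1 + WT and 0.69 (1.62-fold, SE 0.08, adjusted p = 0.000342) from MM to PIM1 + MM. Both calls were lost under median centring.

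FOS and FOSB, the classical immediate-early FOS genes, passed in none of the 4 comparisons within a dye. FOS was well above background in 9 of the 12 channels, all but the second PIM1, PIM1 + WT and PIM1 + MM samples. Its level was 6.86 and 6.71 in control, 6.88 and 6.81 in WT, 6.72 and 6.43 in PIM1 + WT, 6.74 and 6.62 in PIM1, 6.82 and 6.81 in MM, and 6.67 and 6.69 in PIM1 + MM. The difference for PIM1 + WT minus WT was -0.27 (SE 0.10, adjusted p = 0.0674). It was -1.01 with the scanner software's background-subtracted signal (adjusted p = 0.0216), and it also passed with the slide as a block (adjusted p = 0.0313) and with the filter in all 12 channels (adjusted p = 0.0418). The size rested on single samples, with -0.41 (adjusted p = 0.0184) without the first PIM1 + WT sample and -0.13 (adjusted p = 0.434) without the second. FOSB was at 7.07 and 7.25 in control, 7.34 and 7.27 in WT, 7.42 and 7.53 in PIM1 + WT, 7.49 and 7.59 in PIM1, 7.19 and 7.21 in MM, and 7.33 and 7.33 in PIM1 + MM. Its within-dye differences ran from -0.21 (PIM1 + MM minus PIM1, adjusted p = 0.104) to 0.17 (PIM1 + WT minus WT, adjusted p = 0.14).

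MAFF, measured by 10 spots of its probe on each array, rose with stable PIM1 in both dyes. It was at 9.58 and 9.62 in control, 9.73 and 9.75 in WT, and 10.26 and 10.31 in PIM1 + WT, and at 9.97 and 10.03 in PIM1, 9.53 and 9.61 in MM, and 9.79 and 9.90 in PIM1 + MM. No 2 groups of the same dye overlapped. The rise was 0.55 (1.46-fold, SE 0.06, adjusted p = 0.000253) from WT to PIM1 + WT and 0.27 (1.21-fold, SE 0.06, adjusted p = 0.0174) from MM to PIM1 + MM. The second call was lost without the first MM or without the second PIM1 + MM sample, and under median centring the 2 values were 0.32 and 0.12, neither of them passing.

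EGR1, a zinc finger factor induced together with FOS by serum, was not well above background in any of the 12 channels. Its level lay between 6.11 and 6.45 over all samples, with all 6 groups within this range, and no fold change is given. At this signal a difference in EGR1 was not detectable.

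Whether the difference with stable PIM1 was alike for the 2 forms of NFATC1 was tested as an interaction. It is the difference PIM1 + WT minus WT less the difference PIM1 + MM minus MM. Each part lies within 1 dye, so that a constant offset of a probe between the dyes drops out. A difference between the dyes in the size of fold changes does not, since the wild-type part is Cy3 and the mutant part Cy5. The 90th percentile of the raw negative controls was 36 to 46 in Cy3 and 122 to 131.9 in Cy5, and its part was not tested. The first NFATC1 probe stood at 7.77 in WT and 7.97 in PIM1 + WT (Cy3). It stood at 11.29 in MM and 11.95 in PIM1 + MM (Cy5), a contrast that crosses the dyes. The form of NFATC1, its amount and a dye difference in the size of fold changes therefore cannot be told apart in the interaction. JUNB, JUND and FOSL1, 3 of the 9, passed, all higher with wild-type NFATC1, against 2.6% of all probes (1.99% higher). With the filter in all 12 channels, 1854 of 21904 probes passed. The interaction was 0.94 for JUNB (SE 0.13, adjusted p = 0.0103), with 0.97 on slide 1 and 0.91 on slide 2. For JUND it was 0.85 (SE 0.14, adjusted p = 0.02), with 0.85 and 0.86 on the 2 slides. For FOSL1 it was 0.59 (SE 0.09, adjusted p = 0.0128), with 0.59 and 0.60. The sizes therefore differed little between slides. The calls depended on single samples: without the first MM, the first PIM1 + WT, the first WT or the second WT sample, none of the 9 passed, and without the second PIM1 + WT sample only JUNB did. FOSL1 was also lost without the second MM sample and JUND without the second PIM1 + MM sample. With the channels centred on their medians the values were 0.99, 0.83 and 0.41, and no probe of the array passed. The lowest Cy3 signals were those of PIM1 + WT, and the highest spike-in ratios in Cy5 were those of MM. Both groups enter this contrast, and the part of that was not tested.

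The other members did not pass the interaction test in the fit without an array term, but WT and MM shared arrays, as did PIM1 + WT and PIM1 + MM, and with the array as a random block JUN and MAFF passed too, 5 of the 9. The consensus correlation within arrays was 0.41, and 3173 probes passed in that fit against 819 without the block. For JUN the interaction was -0.39 (95% interval -0.63 to -0.16, adjusted p = 0.0883), and it passed with the array as a random block (adjusted p = 0.0137) or as a fixed block (adjusted p = 0.0321) and with the filter in all 12 channels (adjusted p = 0.0331). MAFF had 0.28 (95% interval 0.07 to 0.48, adjusted p = 0.154), with an adjusted p of 0.036 with the array as a random block and 0.0803 as a fixed block. FOSL2 had -0.19 (95% interval -0.43 to 0.06, adjusted p = 0.455) and FOSB had 0.05 (95% interval -0.20 to 0.29, adjusted p = 0.916). These intervals leave room for differences in either direction for FOSL2 and FOSB.

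**Figure D3:**
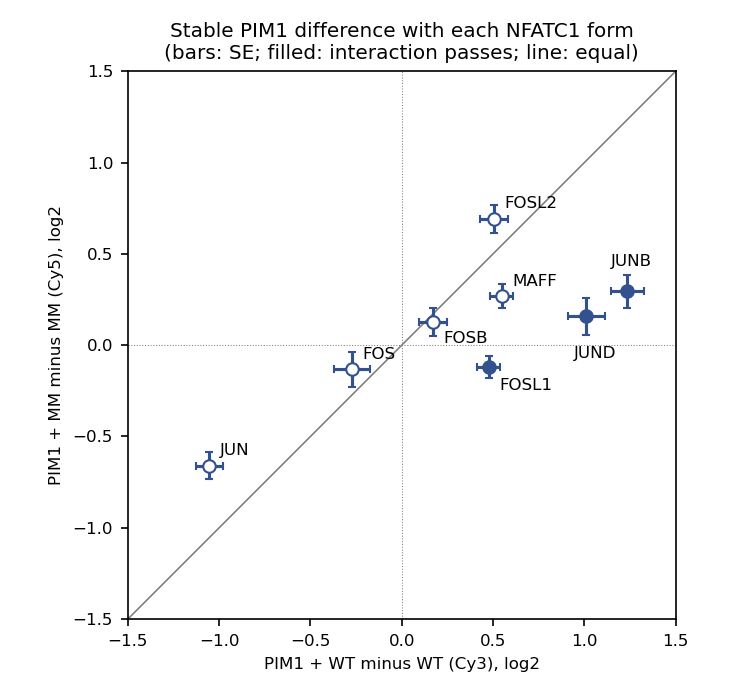
Log2 difference between cells with and without stable PIM1, with wild-type NFATC1 (horizontal axis, Cy3) against that with the multi mutant (vertical axis, Cy5) for 8 genes. Bars are SE, the diagonal marks equal differences and filled points had an interaction with an adjusted p below 0.05. JUNB, JUND and FOSL1 lie below the diagonal at 1.23, 1.01 and 0.48 on the horizontal axis, and JUN is below 0 on both axes.

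Of the 3 comparisons that cross the dyes, in which dye and group cannot be told apart, PIM1 minus control is the one without any transient transfection. There JUN fell by 0.98 (1.97-fold, SE 0.07, adjusted p = 2.84e-05), and it passed under every alternative. MAFF (0.40, adjusted p = 0.0015), FOSB (0.38, adjusted p = 0.00528), JUNB (0.36, adjusted p = 0.0162), JUND (0.34, adjusted p = 0.0352) and FOSL2 (0.27, adjusted p = 0.0297) were higher. These 6 of 9 stand against 26.3% of all probes. Without the array that stood apart, which held 1 sample of each group, JUND (0.18) and FOSL2 no longer passed. JUNB and FOSL2 were also lost without the second control or the first PIM1 sample, and JUND without the first control sample, without either PIM1 sample, with loess normalization and with the processed signal. Under median centring JUN (-1.54) alone of the 6 passed, with JUNB at 0.06, JUND at 0.03, FOSL2 at 0.09 and MAFF at -0.14. When the fit held only the 2 groups compared, JUN and MAFF alone passed.

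PIM1 + WT and PIM1 + MM shared an array on each slide. JUND (1.24, SE 0.10, adjusted p = 9.99e-05), JUNB (1.11, SE 0.09, adjusted p = 9.93e-05), FOSL1 (1.00, SE 0.06, adjusted p = 3.56e-05) and MAFF (0.44, SE 0.06, adjusted p = 0.00176) were higher in PIM1 + WT, 4 of 9 against 17.1% of all probes. Of these, 3 had a log2 difference of at least 1, as did 0.422% of all probes. JUN differed by -0.23 (adjusted p = 0.0616). It passed in 5 of the 19 alternatives that gave a test, among them the array as a random block (adjusted p = 0.0111). Under median centring it was at 0.08 (adjusted p = 0.871). Between WT and MM without stable PIM1, FOSL1 was higher in WT by 0.41 (SE 0.06, adjusted p = 0.0244), 1 of 9 against 1.02% of all probes, and this call ended without any 1 of the 4 samples. These comparisons share their samples with those within a dye and are no separate evidence.

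Over the 27 calls made for the members in the 8 comparisons, 5 were kept under every alternative: those of JUN in PIM1 + WT minus WT and in PIM1 minus control, of JUNB in PIM1 + WT minus WT, and of JUNB and JUND in PIM1 + WT minus PIM1 + MM. The other 22 were lost when the channels were centred on their medians in place of quantile normalization, 9 of them under no other alternative.

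As a description of how the genes varied, Pearson's r was taken over the 12 channels after subtraction of the mean of each dye. The channels share arrays and groups, and no p is given. JUN ran opposite to MAFF (r = -0.95), JUND (-0.92), JUNB (-0.90) and FOSL2 (-0.85). JUNB and JUND went together (0.94), as did FOSL1 and JUND (0.92), and FOSL1 and FOSL2 less so (0.43). Over all named genes, the most like JUN were NPR3, the clearance receptor of natriuretic peptides (r = 0.997), PALM3 (0.994) and SAP30, a subunit of the SIN3 histone deacetylase complex (0.993). The most like FOSL1 were VPS4A, an ATPase of the ESCRT machinery (0.989), PAXX, a factor of DNA end joining (0.988), and PI4KB, a phosphatidylinositol 4-kinase (0.983). For FOS they were TGFBI (0.932), FLRT3 (0.926) and PKDREJ (0.925), which were well above background in only 5, 5 and 1 of the 12 channels, and for EGR1, at levels not above background, MED4 (0.933), GMFB (0.931) and ACTR2 (0.924).

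The counts over the lists of genes around AP-1 are a description, to be read against the shares over all probes. Those shares include dim probes, whereas each listed gene was read from its probe of highest mean. Among other bZIP proteins, 4 of the 24 tested rose and 4 fell from WT to PIM1 + WT (27.7% of all probes), and 6 rose and 4 fell from MM to PIM1 + MM (19.3% of all probes). JDP2, a repressor that pairs with JUN proteins, fell by 1.00 (SE 0.07, adjusted p = 1.63e-05) and by 0.83 (SE 0.07, adjusted p = 8.39e-05) in the 2 comparisons. CREB1 fell by 0.68 (adjusted p = 0.000586) and NFE2L1, a CNC partner of small MAF proteins, rose by 0.61 (adjusted p = 0.00123) from WT to PIM1 + WT. From MM to PIM1 + MM, ATF4, the factor of the integrated stress response, rose by 0.67 (adjusted p = 0.00109) and NFE2L3 by 0.74 (adjusted p = 0.0104). From PIM1 to PIM1 + MM, 4 rose and 4 fell (13.5% of all probes), with MAFK, another small MAF protein, lower by 0.54 (adjusted p = 0.0015). None of the 24 passed the interaction test (2.6% of all probes), and none passed for WT minus control (0.191% of all probes).

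Of 38 other immediate-early and serum-response genes, 12 rose and 12 fell from WT to PIM1 + WT, where 13.2% of all probes rose and 14.5% fell. From MM to PIM1 + MM, 13 rose and 7 fell, against 9.81% and 9.53% of all probes. SPRY4, an inhibitor of receptor tyrosine kinase signalling, rose by 1.86 (3.64-fold, SE 0.12, adjusted p = 9.32e-06) and by 1.16 (2.23-fold, adjusted p = 0.000196), and it fell by 0.75 (adjusted p = 0.00435) from PIM1 to PIM1 + MM. SGK1, a serum-induced kinase, fell by 1.15 (adjusted p = 1.16e-05) and by 0.97 (adjusted p = 4.71e-05), and the ERK phosphatase DUSP5 rose by 0.77 (adjusted p = 0.000181) from MM to PIM1 + MM. From PIM1 to PIM1 + MM, 1 rose and 4 fell (13.5% of all probes, 7.82% lower). In the interaction 1 of the 38 passed (2.6% of all probes), PPP1R15A (GADD34), a regulator of translation under stress, at 0.64 (SE 0.12, adjusted p = 0.0258).

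In the MAP kinase pathway, which activates AP-1 and the ternary complex factors, 9 of 31 genes rose and 8 fell from WT to PIM1 + WT (13.2% and 14.5% of all probes), and 1 rose and 7 fell from MM to PIM1 + MM (9.81% and 9.53%). MAP3K1, a kinase upstream of JNK, fell by 1.21 (SE 0.06, adjusted p = 4.44e-06) and by 0.88 (SE 0.06, adjusted p = 3.05e-05). MAP2K2 (MEK2) rose by 0.83 (adjusted p = 0.0002) and ARAF by 0.69 (adjusted p = 6.97e-05) from WT to PIM1 + WT. From PIM1 to PIM1 + MM none rose and 6 fell (13.5% of all probes, 7.82% lower). In the interaction 6 of 31 were higher with wild-type NFATC1 and 1 lower, against 2.6% of all probes (1.99% higher). ARAF had 0.66 (adjusted p = 0.0104), MAPK3 (ERK1) 0.64 (adjusted p = 0.012) and MAP2K2 0.61 (adjusted p = 0.0473), and with the median over the probes of a gene ARAF was at 0.21 and no longer passed.

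Of the 5 genes for serum response factor and its partners that were tested, 1 rose and 1 fell from WT to PIM1 + WT (27.7% of all probes), and 1 fell from MM to PIM1 + MM (19.3%). The ternary complex factor ELK1 rose by 0.56 (adjusted p = 0.000319) from WT to PIM1 + WT and had an interaction of 0.52 (adjusted p = 0.0287), but its probes disagreed, and with the median over them the 2 values were 0.11 and 0.13 and did not pass. MRTFB fell by 0.52 (adjusted p = 0.00139) and by 0.33 (adjusted p = 0.0215) in the 2 comparisons. Of the EGR family and its NAB co-repressors, 1 of 5 passed in each comparison of stable PIM1, EGR2 both times, at -0.22 (adjusted p = 0.0236) and -0.22 (adjusted p = 0.0373). EGR2 rose by 0.37 (adjusted p = 0.00613) from PIM1 to PIM1 + MM and was well above background in 9 of the 12 channels, and these 3 calls were lost with loess normalization.

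Of 26 genes described as AP-1 targets in other cells, 8 rose and 7 fell from WT to PIM1 + WT (13.2% and 14.5% of all probes), and 6 rose and 9 fell from MM to PIM1 + MM (9.81% and 9.53%). MT2A, a metallothionein, fell by 1.06 (adjusted p = 0.000482) and by 0.89 (adjusted p = 0.00211), and CD44, a hyaluronan receptor, fell by 0.89 (adjusted p = 0.000138) and by 0.88 (adjusted p = 0.000277). HMOX1, haem oxygenase, fell by 1.06 (SE 0.05, adjusted p = 4.37e-06) from WT to PIM1 + WT, with an interaction of -0.73 (SE 0.08, adjusted p = 0.00529), and TGFB1 had an interaction of 0.65 (SE 0.08, adjusted p = 0.00846). From PIM1 to PIM1 + MM, 1 rose and 7 fell (13.5% of all probes, 7.82% lower), with falls of TIMP1, an inhibitor of metalloproteinases, by 0.54 (adjusted p = 0.00274) and TGFB1 by 0.46 (adjusted p = 0.00195). The median difference of the list was 0.03 for PIM1 + WT minus WT and -0.02 for PIM1 + MM minus MM, beside -0.01 and 0.00 over all probes. No gene of the 6 lists passed for WT minus control, where 0.191% of all probes did. Of 50 differences and interactions that the rule drew from these lists, 44 were lost under median centring, 7 with the median over the probes of a gene and 17 without some 1 sample. The 7 interactions named from the lists all ended without the first WT sample and also without the first PIM1 + WT sample, and MRTFB and NFE2L3 from MM to PIM1 + MM ended without either the second MM or the first PIM1 + MM sample.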

How the data were processed

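Total RNA of 12 samples was hybridized to 6 two-colour Agilent Human Gene Expression v2 4x44K arrays, and signals were extracted by the authors with Feature Extraction. The deposited scanner files hold raw and processed spot intensity per channel, and the deposited log2 table holds the authors' quantile-normalized values of the same channels, with limma named in the submitters' processing notes. For arrays there is no read depth, and precision is set by how few arrays there are.

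Here the raw median intensity was used, since the mean signal is not in the files analysed. Flagged spots were left out, spots of a probe averaged on the log2 scale, and probes kept where above the 90th percentile of negative controls in at least 2 channels. Values were quantile normalized and fitted with limma 3.58.1 (R 4.3.3), with 1 mean per group over all 12 channels, which supply 1 estimate of the spread. P-values were adjusted by Benjamini-Hochberg over 31484 probes, with a threshold of 0.05. The fit was also run on simulated data with known changes. Those channels were drawn independently, without the correlation within arrays, so that the run does not show how well the p-values hold here.

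All 9 members are named. From each list, up to 3 genes with the largest passing difference of the same sign on both slides were eligible in each comparison, with the probe of highest mean. The 9 members and the lists were chosen with earlier results of these data known. Motifs were searched on both strands of RefSeq promoter windows. Alternatives covered the background correction, normalization, signal, filter, blocks and each sample left out. A few genes of the lists are not reported here by name.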

Additional observations from a re-analysis of the deposited data

Results flagged for a closer look

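The results below were set apart because the difference with stable PIM1 was not the same with wild-type and with multi mutant NFATC1. This was judged by the interaction test of the limma fit (adjusted p below 0.05 over all probes). Among the AP-1 members these were JUNB (0.94), JUND (0.85) and FOSL1 (0.59), each larger with wild-type NFATC1. From the lists they were PPP1R15A (0.64), ELK1 (0.52), ARAF (0.66), MAPK3 (0.64), MAP2K2 (0.61) and TGFB1 (0.65), also larger with wild-type NFATC1, and HMOX1 (-0.73), lower with it. By the median over the probes of a gene ELK1 (0.13), ARAF (0.21) and MAP2K2 (adjusted p = 0.0501) did not pass. The 7 calls from the lists all ended without the first WT sample and without the first PIM1 + WT sample, as did those of the 3 members, and no probe of the array passed under median centring. All are contrasts of the groups WT, PIM1 + WT, MM and PIM1 + MM. The Cy3 signals of PIM1 + WT were the lowest, and the part of this was not tested. The first NFATC1 probe was higher with the mutant in Cy5 than with the wild-type form in Cy3. The form of NFATC1, its amount and a dye difference in the size of fold changes therefore cannot be told apart in these results.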

How the results depend on the processing

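The number of members that passed was unchanged or within 1.5 times for most alternatives. With the channels centred on their medians, which moved the median of all probes to 0.125 in PIM1 + WT minus WT, it was 2 (of 6) for PIM1 + WT minus WT, 0 (of 4) for PIM1 + MM minus MM, 0 (of 3) for PIM1 + MM minus PIM1, 0 (of 3) for the interaction, 1 (of 6) for PIM1 minus control, 0 (of 1) for WT minus MM and 2 (of 4) for PIM1 + WT minus PIM1 + MM. Over all probes, 620 (of 8721) then passed in PIM1 + WT minus WT, 131 (of 6090) in PIM1 + MM minus MM and none in the interaction. In PIM1 + MM minus PIM1 it was 1 (of 4253), in WT minus MM 1 (of 320) and in PIM1 + WT minus PIM1 + MM 46 (of 5370). The loss was thus of probes at large in these comparisons, whereas in PIM1 minus control the number rose from 8269 to 10824. With only the groups compared in the fit, fewer samples estimate the spread. The number of members was then 2 for PIM1 + MM minus MM, 0 for PIM1 + MM minus PIM1, 2 for PIM1 minus control and 0 for WT minus MM. With the array as a random block, 5 passed in the interaction and 2 for WT minus MM. Over all probes, that block gave 3173 (819 without it) in the interaction and 1592 (320 without it) for WT minus MM. Other counts that moved were 1 for PIM1 + MM minus PIM1 without the array of the first control and PIM1 samples, 1 for WT minus control with the filter in all 12 channels, and 0 for WT minus MM with the processed signal. Leaving out 1 sample gave 0 to 3 in the interaction, 2 to 3 for PIM1 + MM minus MM, 0 to 2 for PIM1 + MM minus PIM1, 3 to 5 for PIM1 minus control and 0 each time for WT minus MM. The cause of these shifts was not tested where none is given.

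The slide served as the replicate block. It gave 7 members for PIM1 + WT minus WT, where FOS was added, and the same number as without the block in the other 7 comparisons. The first samples deviated from their group means with r = 0.05 to 0.84 over the 15 pairs of groups, 7 of them over 0.1, so that the numbers are not taken to pair samples. The 3 highest were those of the groups that shared arrays, control and PIM1 (0.84), WT and MM (0.49) and PIM1 + WT and PIM1 + MM (0.34), against at most 0.17 for the others.

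Of 64 member differences, 13 changed sign somewhere, and 1 of these was a call, MAFF in PIM1 minus control (-0.143 under median centring). Under median centring FOS turned to -0.055 in PIM1 + MM minus PIM1, 0.272 in PIM1 minus control and -0.214 in WT minus MM, FOSL1 to -0.624 in PIM1 minus control and JUN to 0.0785 in PIM1 + WT minus PIM1 + MM. In PIM1 + MM minus PIM1, JUN was 0.113 with the processed signal and 0.0354 within slide 2, and ELK1 was 0.0878 by the median over its probes. Within slide 1, FOS was -0.0673 in PIM1 + MM minus PIM1 and 0.0451 in PIM1 + WT minus PIM1 + MM, FOSB was -0.0533 in the interaction and FOSL2 was -0.068 in PIM1 + WT minus PIM1 + MM. With normexp correction FOS was -0.0064 in WT minus MM, and without the first 33 rows of the second PIM1 + MM sample it was -0.00212 in PIM1 + MM minus PIM1. Leaving out 1 sample gave FOS values from -0.282 to 0.00209 in the interaction, -0.057 to 0.0659 in PIM1 + MM minus PIM1, -0.25 to 0.0348 in PIM1 + WT minus PIM1 + MM, -0.0107 to 0.138 in WT minus control and -0.00241 to 0.0678 in WT minus MM. It gave FOSB values from -0.0105 to 0.101 in the interaction, and FOSL2 values from -0.0237 to 0.0917 in PIM1 + WT minus PIM1 + MM and from -0.146 to 0.00239 in WT minus control, where leaving out the array of the first control sample also gave 0.00239. Signal over background limits FOS and EGR1.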
